A study of Mus musculus with 4 samples.

Results

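Dendritic cells take up antigen in tissues, carry it to lymph nodes and present it to T cells. They comprise conventional cells of type 1, which cross-present antigen to CD8 T cells, conventional cells of type 2, plasmacytoid cells, which make type I interferon, and cells that arise from monocytes during inflammation. Each kind matures into a migratory state with high levels of the chemokine receptor CCR7 and of costimulatory molecules. In lung tumours they are scarce, and their transcripts form a small part of the RNA of the whole tissue. The 10 genes described here, of 35275 listed, were chosen by name as markers of these kinds. They and the gene lists below were chosen with earlier results of these data known. Xcr1, Clec9a, Batf3, Irf8 and Itgae mark conventional type 1 cells, and Cd209a cells of the type 2 and monocyte-derived kind. Fscn1 marks mature cells and Siglech plasmacytoid cells. Flt3 was taken as a gene shared by dendritic cells, and Zbtb46 as one of the conventional lineage. All 10 were found in the table, and 7 of them passed the filter on low values used for testing.

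RNA was sequenced from lung tumours of Balb/c mice that were Nrf2 -/- (KO) or Nrf2 +/+ (WT), with 2 samples of each genotype. Nrf2, the product of Nfe2l2, is a transcription factor that turns on antioxidant and detoxifying genes. Mice of both genotypes had been given the carcinogen vinyl carbamate at 16 mg/kg, in 2 or 4 doses, and each sample pooled 3 to 4 tumours taken 40 to 44 weeks later, so that both genotypes share the carcinogen and no untreated or tumour-free lung is compared. Neither doses, weeks nor tumour numbers are given per sample, and the making of the Nrf2 allele is not described in the labels.

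Levels are FPKM, reads scaled to gene length and library total. The values imply library totals of 17975646 and 16892588 reads for KO 1 and KO 2 and of 21659572 and 21220307 reads for WT 1 and WT 2. Nfe2l2 had 3.66 and 2.96 FPKM in KO tumours, against 96.3 and 87.9 FPKM in WT tumours, so the genotype labels match the gene's own level. The labelled tissue was matched by the alveolar surfactant gene Sftpc, at 75160 to 90470 FPKM over the 4 libraries, and by the epithelial gene Epcam, at 127 to 149 FPKM. In limma, 15 of 13147 genes tested were called at an adjusted p under 0.05 (0.114%), 10 higher in KO tumours (0.0761%) and 5 lower (0.038%). That count was 221 without KO 1 and 49 without KO 2. With 2 samples against 2, an exact permutation test cannot go below p = 0.333, so each p-value given is limma's. The design text names 2 mice of each genotype, and the p-values measure the spread between these 4 samples, each pooled from several tumours. In tissue RNA, fewer cells of a type and less RNA per cell cannot be told apart.

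Every one of the 10 dendritic cell genes had a higher mean level in KO tumours than in WT tumours, by 1.22 times for Irf8 to 2.81 times for Cd209a, with a median of 1.59 times. For comparison, 53.7% of the 21601 genes above 0 had a higher mean in KO tumours. Both KO libraries lay above both WT libraries for 8 of the 10, beside 22.4% of all genes above 0 (22.7% of genes tested). Both lay below for none, beside 19.3% of genes above 0 (25.4% of genes tested). Groups overlapped for Fscn1 and Cd209a. None of the 7 tested genes was called. Their limma adjusted p ranged from 0.309 for Irf8 to 0.518 for Fscn1. The unadjusted p was under 0.05 for 1 of them, Irf8, beside 8.36% of all tested genes in the upward direction and 7.01% downward. With no filter, limma called 0 of the 10, against 0.00463% of 21601 genes, and 3 had an unadjusted p under 0.05 (Xcr1, Irf8 and Siglech; 6.76% of all genes upward). With limma-voom on whole reads recovered from the FPKM values, over genes with at least 10 reads in 2 or more libraries, all 10 could be tested; 0 of the 10 were called, against 7 of 14944 genes (0.0468%), and 3 had an unadjusted p under 0.05 (Xcr1, Irf8 and Itgae; 8.28% of all genes upward).

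**Figure D1:**
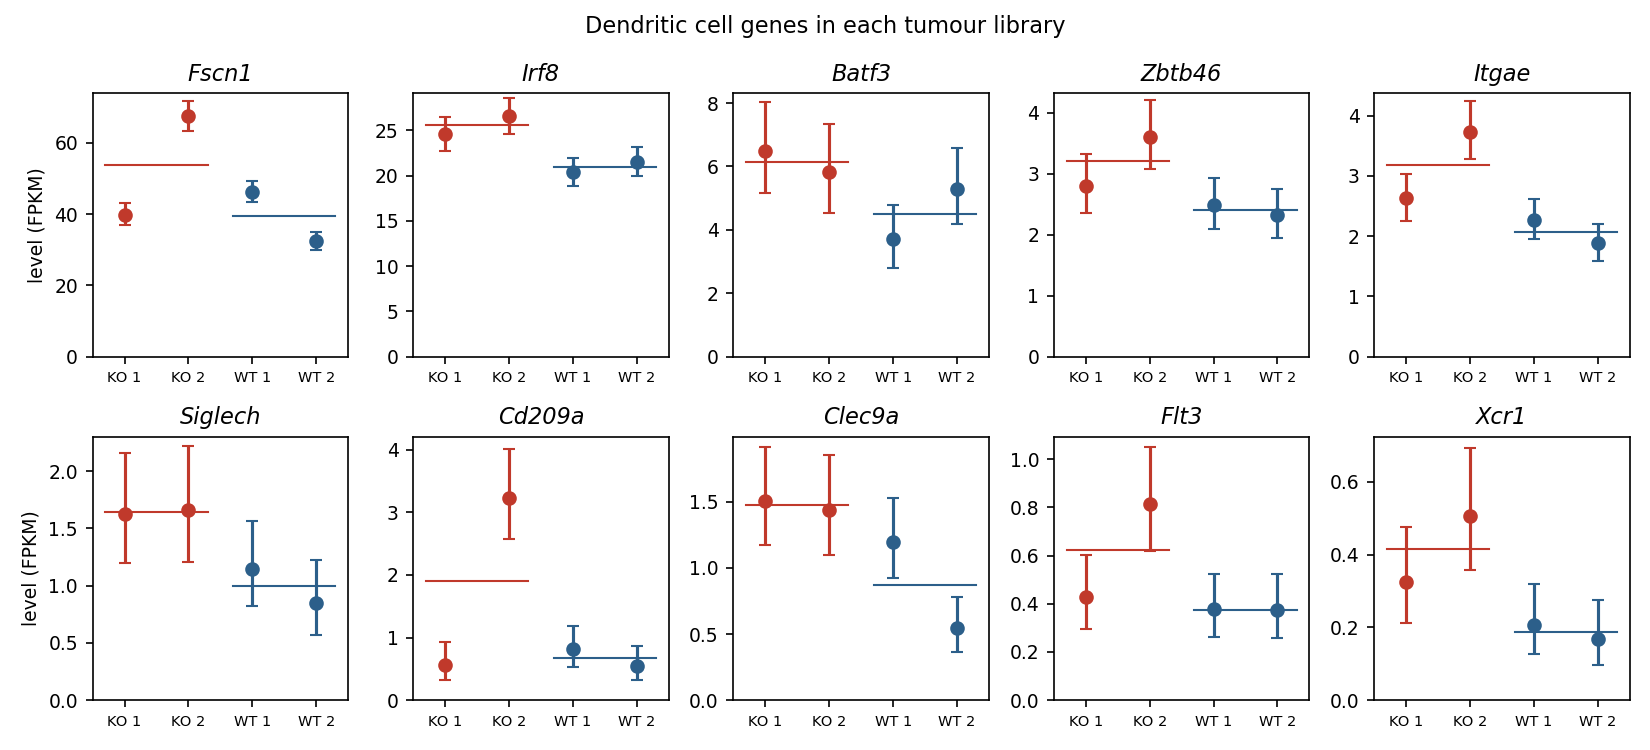
FPKM of the 10 dendritic cell genes (y axis, linear from 0) in KO 1, KO 2, WT 1 and WT 2 (x axis), with panels ordered by mean level. Points are libraries, whiskers exact 95% Poisson intervals from the recovered reads (counting error only) and horizontal lines group means; 8 genes have both KO points above both WT points, and Fscn1 and Cd209a do not.

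In order of the mean over the 4 libraries the levels were Fscn1 at 46.5 FPKM, Irf8 at 23.2, Batf3 at 5.32, Zbtb46 at 2.81, Itgae at 2.63, Siglech at 1.32, Cd209a at 1.29, Clec9a at 1.17, Flt3 at 0.499 and Xcr1 at 0.302. The ranges over libraries did not overlap between Fscn1 and Irf8, Irf8 and Batf3, Batf3 and Zbtb46, or Itgae and Siglech, and they overlapped for all other neighbours in this order. The highest genes, Fscn1 and Irf8, are also made by other cells, as are Itgae and Zbtb46. The part of other cells in these levels was not tested. FPKM divides by a gene length that is not given, so levels of different genes compare only as far as those lengths do. For Xcr1, Zbtb46, Itgae and Siglech the recovered length was the mean of the annotated transcripts. For the other 6 it was the smallest that gave whole reads (1575 bases for Irf8, against 7055 annotated exonic bases), so their read counts may be too low and their counting intervals too wide.

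The 3 stretches shown, each taken from before an annotated start, are those with a match to a motif searched for. The search asked whether promoters of the 10 genes carry the antioxidant response element, to which NRF2 binds together with small MAF proteins. Windows of 250 bases before to 50 bases after annotated starts came from RefSeq (GRCm38.p6), and 9 of the 10 genes matched, with 10 windows in all. Itgae had no window. Searched on both strands, TGACNNNGC was present in 2 of the 10 windows, those of Siglech and of the downstream start of Irf8, and in 12.4% of the 32851 windows of all genes. The AP-1 motif TGANTCA, which can overlap the antioxidant response element, was present in 1, that of Zbtb46, and in 7.81% of all windows. The IRF element, a GAAA followed after any 2 bases by another GAAA, was in 0 of the 10 and in 3.44% of all. A match is only a run of letters, and a window without one says nothing about binding elsewhere. In the lines below each stretch runs 5′ to 3′ on the strand of the gene and ends before the start, with the matched letters in capitals.
Siglech, chr7:55767934-55768024, plus strand, matched on the opposite strand: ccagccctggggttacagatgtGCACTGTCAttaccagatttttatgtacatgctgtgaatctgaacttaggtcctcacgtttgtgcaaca
Irf8, chr8:120738554-120738638, plus strand, 17 bases before the downstream start: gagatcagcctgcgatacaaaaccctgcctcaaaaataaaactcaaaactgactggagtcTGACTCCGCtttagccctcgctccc
Zbtb46, chr2:181424389-181424509, minus strand, AP-1 match: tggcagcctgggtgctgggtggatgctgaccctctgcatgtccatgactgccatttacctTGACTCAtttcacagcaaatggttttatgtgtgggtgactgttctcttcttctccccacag
The Irf8 stretch lies inside the gene, 2281 bases downstream of its first start, and the Zbtb46 stretch belongs to a start 35038 bases into that gene. No window at the first start of Zbtb46 was searched, so its AP-1 match says nothing about the promoter there. Whether the internal start is used in these tumours was not tested. The Siglech stretch lies just upstream of the gene.

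Conventional type 1 cells were represented by their receptors first. XCR1 is the receptor for the chemokine XCL1 and is found almost solely on these cells. Xcr1 (ENSMUSG00000060509, chromosome 9, 123852315 to 123862029, minus strand, mm10) had 0.325 and 0.505 FPKM in KO 1 and KO 2, against 0.207 and 0.169 FPKM in WT 1 and WT 2. These levels rest on 26 and 38 reads in KO tumours and on 20 and 16 reads in WT tumours. Both KO libraries lay above both WT libraries, yet the 95% counting intervals of KO 1 (0.212 to 0.476 FPKM) and WT 1 (0.127 to 0.320 FPKM) overlapped. The gene was under the filter. With limma-voom on recovered reads its log2 fold change was 1.09 ± 0.40 (SE; adjusted p = 0.275), and on the log2(FPKM + 1) scale, which shrinks differences of such low genes, it was 0.25. The ligand gene Xcl1 had 0.426 and 0.453 FPKM in KO tumours and 0.441 and 0.360 FPKM in WT tumours, so that its groups overlapped.

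CLEC9A is a lectin receptor by which type 1 cells recognise the actin of dead cells. Clec9a (ENSMUSG00000046080, chromosome 6, 129408862 to 129424763) had 1.51 and 1.44 FPKM in KO 1 and KO 2, against 1.20 and 0.545 FPKM in WT 1 and WT 2. The KO libraries were alike and the WT libraries were not, with WT 2 at 0.455 times WT 1 (95% exact counting interval 0.283 to 0.716). Its log2 fold change was 0.43 ± 0.22 (SE; limma adjusted p = 0.409), and it was 0.17 without WT 2 and 0.68 without WT 1. Clec9a shares 184 exonic bases with its neighbour Clec1b on the same strand, a gene of platelets, which had 1.85 and 1.31 FPKM in KO tumours and 1.05 and 0.406 FPKM in WT tumours. How reads from the shared bases were counted is not given in the sources used here, and the part of Clec1b in the Clec9a values was not tested.

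The transcription factors of the type 1 lineage differed less in relative terms. BATF3 is needed for these cells to develop. Batf3 (ENSMUSG00000026630, chromosome 1, 191097847 to 191108945) had 6.49 and 5.82 FPKM in KO 1 and KO 2, against 3.70 and 5.29 FPKM in WT 1 and WT 2. WT 2 lay close below KO 2, well within the counting interval of either. The log2 fold change was 0.39 ± 0.18 (SE; limma adjusted p = 0.362), and it was 0.18 without WT 1 and 0.61 without WT 2.

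IRF8 directs the development of type 1 and plasmacytoid cells and is also made by monocytes, macrophages and B cells. Irf8 (ENSMUSG00000041515, chromosome 8, 120736358 to 120756694) had 24.5 and 26.5 FPKM in KO 1 and KO 2, against 20.4 and 21.5 FPKM in WT 1 and WT 2. It was the best measured of the lineage factors, with 695 and 706 reads in KO tumours and 695 and 719 reads in WT tumours, and replicates of each genotype lay closer to each other than to the other genotype. The log2 fold change was 0.27 ± 0.11 (SE; limma unadjusted p = 0.0419, adjusted p = 0.309), and it stayed between 0.22 and 0.33 with each library left out in turn.

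Itgae encodes the alpha chain of the integrin CD103, which binds E-cadherin and is carried both by type 1 dendritic cells and by T cells resident in epithelia. Itgae (ENSMUSG00000005947, chromosome 11, 73090583 to 73147446) had 2.63 and 3.74 FPKM in KO 1 and KO 2, against 2.26 and 1.88 FPKM in WT 1 and WT 2. The KO libraries lay above the WT libraries, with KO 2 at 1.42 times KO 1 (95% exact counting interval 1.17 to 1.74). Its log2 fold change was 0.43 ± 0.19 (SE; limma adjusted p = 0.342), and it was 0.24 without KO 2. Its beta partner Itgb7, which also pairs with another alpha chain on lymphocytes, had 8.60 and 11.2 FPKM in KO tumours and 4.86 and 4.04 FPKM in WT tumours. The log2 fold change of Itgb7, 0.99 ± 0.16 (limma adjusted p = 0.114), was 1.16 without KO 1 and 0.82 without KO 2. Cdh1, the gene of E-cadherin, had 145 and 151 FPKM in KO tumours and 191 and 166 FPKM in WT tumours (-0.27 ± 0.12, limma adjusted p = 0.362). The 12 T cell markers were all higher in both KO libraries than in both WT libraries, beside 22.4% of all genes above 0. They had summed levels of 34.6 and 42.8 FPKM against 16.3 and 14.7 FPKM, with 0 of 7 tested genes called (0.114% of all tested genes). Their part in the Itgae values was not tested. The gene Haspin lies within Itgae on the other strand and shares no exonic base with it.

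Of 12 genes on the list of type 1 cells, which holds these 5, 6 were higher in both KO libraries than in both WT libraries, none was lower and 6 overlapped, beside 22.4% of all genes above 0 higher and 19.3% lower. The 6 higher genes were these 5 and Naaa, and every other gene of the list overlapped. None of the 11 tested was called, and the unadjusted p was under 0.05 for 1 (Irf8), a share near the 8.36% of all tested genes. The median of the list, with the tested genes among these 5 included, lay at 0.21 on the log2 fold change scale, and that of all tested genes at -0.0043. Outside these 5, log2 fold changes ran from -0.18 for Wdfy4 to 0.32 for Snx22. Naaa, an acid amidase of lysosomes, had 55.8 and 51.8 FPKM in KO tumours and 45.1 and 47.3 FPKM in WT tumours. Groups overlapped for Wdfy4, which is needed for cross-presentation (log2 fold change -0.18 ± 0.14, limma adjusted p = 0.588), for Tlr3, the endosomal sensor of double-stranded RNA (3.94 and 4.85 FPKM against 5.24 and 4.04 FPKM), and for Cadm1, an adhesion molecule (44.6 and 46.9 FPKM against 48.1 and 41.2 FPKM). Cadm1 and Cd24a, on the same list, are widely made by epithelium.

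Flt3 and Zbtb46, from the list of genes shared by dendritic cells, were low. FLT3 is the receptor of the growth factor on which dendritic cell numbers depend. Flt3 (ENSMUSG00000042817, chromosome 5, 147330741 to 147400489, minus strand) had 0.429 and 0.815 FPKM in KO 1 and KO 2, against 0.377 and 0.374 FPKM in WT 1 and WT 2, from 33 and 59 reads and from 35 and 34 reads. KO 2 stood apart at 1.90 times KO 1 (95% exact counting interval 1.22 to 3.01), and KO 1 was close to the WT libraries. Flt3 was under the filter; with limma-voom on recovered reads its log2 fold change was 0.64 ± 0.39 (SE; adjusted p = 0.479). On the log2(FPKM + 1) scale the difference was 0.23, and 0.05 without KO 2.

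ZBTB46 is a zinc finger factor that sets conventional dendritic cells apart from other myeloid cells, and endothelial cells make it as well. Zbtb46 (ENSMUSG00000027583, chromosome 2, 181387762 to 181459426, minus strand) had 2.81 and 3.61 FPKM in KO 1 and KO 2, against 2.49 and 2.33 FPKM in WT 1 and WT 2. Both KO libraries lay above both WT libraries, and KO 1 lay closer to WT 1 than to KO 2. Its log2 fold change was 0.30 ± 0.16 (SE; limma adjusted p = 0.431), and it was 0.16 without KO 2. The 8 endothelial markers summed to 165 and 242 FPKM in KO tumours and to 175 and 101 FPKM in WT tumours. Of the 8, 3 were higher in both KO libraries, beside 22.4% of all genes above 0. The part of these markers' cells in the Zbtb46 values was not tested.

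Of the 11 genes shared by dendritic cells, Flt3 and Zbtb46 included, 7 were higher in both KO libraries, 2 were lower and 2 overlapped, beside 22.4% and 19.3% of all genes above 0. Of the 10 tested, 0 were called and 1 had an unadjusted p under 0.05 (Kmo), near the upward share of 8.36% over all tested genes. Their median log2 fold change was 0.13, and 0.07 without KO 2. Itgax, the gene of CD11c, which alveolar macrophages carry too, had 26.9 and 30.5 FPKM in KO tumours and 31.0 and 25.6 FPKM in WT tumours. The class II chain H2-Aa had 244 and 276 FPKM in KO tumours and 222 and 237 FPKM in WT tumours, and H2-Ab1 had 167 and 203 FPKM against 156 and 163 FPKM. Ciita, the class II transactivator, had 19.1 and 21.2 FPKM against 23.99 and 21.71 FPKM. Kmo, an enzyme of tryptophan breakdown, had 1.23 and 1.72 FPKM in KO tumours and 0.939 and 0.548 FPKM in WT tumours (log2 fold change 0.51 ± 0.20, limma adjusted p = 0.316). Jaml, an adhesion molecule, had 4.17 and 3.59 FPKM against 3.44 and 3.38 FPKM, and Dpp4, a surface protease, 157 and 158 FPKM against 184 and 170 FPKM.

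Cd209a encodes a mouse homologue of the lectin DC-SIGN and marks cells of the type 2 and monocyte-derived kind. Cd209a (ENSMUSG00000031494, chromosome 8, 3743397 to 3748984, minus strand) had 0.562 and 3.23 FPKM in KO 1 and KO 2, against 0.809 and 0.540 FPKM in WT 1 and WT 2. Of its 96 reads in KO tumours, 81 came from KO 2, which was at 5.75 times KO 1 (95% exact counting interval 3.29 to 10.7), and KO 1 lay between the WT libraries. The gene was under the filter, and limma-voom on recovered reads gave a log2 fold change of 0.99 ± 0.82 (SE; adjusted p = 0.608). On the log2(FPKM + 1) scale the difference was 0.62 with all libraries and -0.095 without KO 2, so that its direction rested on that library. Cd209a has near neighbours of similar sequence, and reads of one could be counted for another. Among these, Cd209c had 1.12 and 2.71 FPKM, Cd209d 0.547 and 1.23 FPKM and Cd209e 0.0617 and 0.690 FPKM in KO 1 and KO 2, against 0.568 and 0.843, 0.151 and 0, and 0.0256 and 0.0262 FPKM in WT 1 and WT 2, so that KO 2 was highest for each of the 3, while Cd209b had 1.20 and 1.44 FPKM in KO tumours and 2.09 and 1.72 FPKM in WT tumours.

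Of the 12 genes of type 2 and monocyte-derived cells, 5 were higher in both KO libraries, 2 were lower and 5 overlapped, beside 22.4% and 19.3% of all genes above 0. None of the 8 tested was called, and the unadjusted p was under 0.05 for 3 higher and 1 lower gene, beside 8.36% and 7.01% of all tested genes. The median log2 fold change was 0.19 and depended on which genes and libraries entered: it was -0.12 with an FPKM of at least 5, 0.42 with no filter, 0.84 with limma-voom at 10 reads, 0.34 without KO 1 and 0.06 without WT 2. Mgl2, a galactose-binding lectin of type 2 cells and of some macrophages, had 10.8 and 32.7 FPKM in KO 1 and KO 2, against 7.61 and 5.55 FPKM in WT tumours. It thus shared the high value in KO 2 with Cd209a, and its log2 fold change of 1.41 ± 0.46 (SE, limma adjusted p = 0.256) was 0.65 without KO 2 and 2.16 without KO 1. Clec10a, its close relative, had 1.20 and 1.47 FPKM in KO tumours and 0.418 and 0.693 FPKM in WT tumours (0.59 ± 0.19, adjusted p = 0.247).
Ccr2, the receptor that brings monocytes into tissue, had 4.63 and 6.75 FPKM in KO tumours and 2.79 and 2.39 FPKM in WT tumours. Its log2 fold change of 0.88 ± 0.19 (limma adjusted p = 0.158) was 1.11 without KO 1 and 0.65 without KO 2. Itgam, the gene of CD11b, had 3.64 and 4.94 FPKM against 3.601 and 2.196 FPKM. Irf4, the factor of type 2 cells, was low and overlapped, with 0.590 and 1.52 FPKM in KO tumours and 0.431 and 0.630 FPKM in WT tumours. Notch2, a receptor that type 2 cells depend on in several organs and that other cells make too, had 6.47 and 5.92 FPKM in KO tumours and 11.4 and 8.37 FPKM in WT tumours (-0.58 ± 0.17, limma adjusted p = 0.219), and Klf4 had 14.1 and 13.4 FPKM against 15.8 and 15.7 FPKM. Clec4a4 was listed at 0 in 3 of the 4 libraries. Monocyte markers summed to 607 and 1152 FPKM in KO tumours and to 639 and 536 FPKM in WT tumours, most of it from Chil3. Of the 8, 3 were higher in both KO libraries, beside 22.4% of all genes above 0, and 0 were called. The part of monocytes in these values was not tested.

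Fscn1 was the highest of the 10 genes and did not separate the genotypes. It encodes fascin, which bundles actin in the processes of mature dendritic cells and is also made by endothelium, fibroblasts and some tumour cells. Fscn1 (ENSMUSG00000029581, chromosome 5, 142960343 to 142973185) had 39.8 and 67.5 FPKM in KO 1 and KO 2, against 46.3 and 32.4 FPKM in WT 1 and WT 2. The order of the libraries was KO 2, WT 1, KO 1 and WT 2. Counting error was small, from 624 reads in WT 2 to 1035 in KO 2, and libraries of 1 genotype differed well beyond it, by 1.69 times between KO 2 and KO 1 (95% exact counting interval 1.53 to 1.87) and by 0.700 times between WT 2 and WT 1 (0.631 to 0.776). The log2 fold change was 0.41 ± 0.27 (SE; limma adjusted p = 0.518), and it was 0.04 without KO 2 and 0.79 without KO 1. The summed markers of endothelial cells, given above, and of fibroblasts (400 and 649 FPKM in KO tumours, 441 and 309 FPKM in WT tumours) stood in the same order of libraries, as did those of macrophages and monocytes, and their part in the Fscn1 values was not tested.

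**Figure D2:**
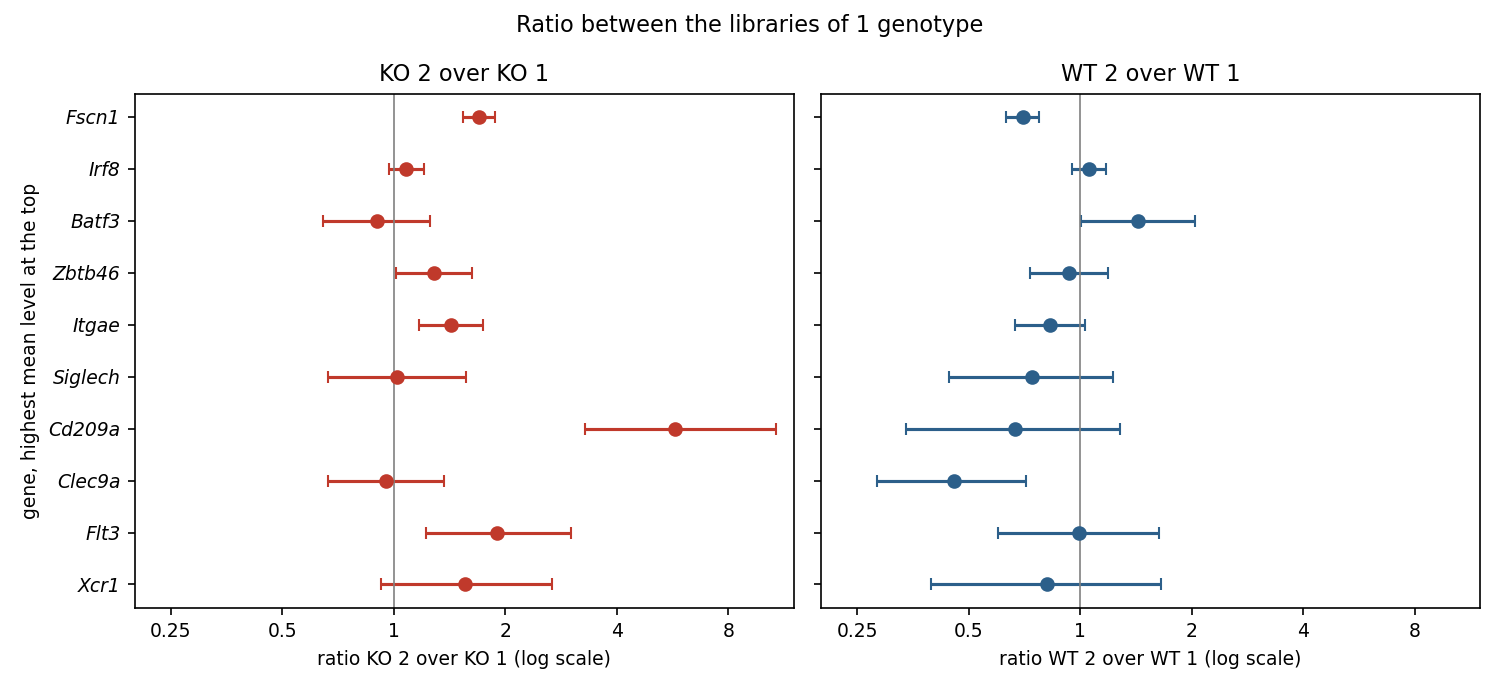
Ratio of KO 2 over KO 1 (left) and of WT 2 over WT 1 (right) on a log axis for the 10 genes (y axis, highest mean level at the top). Points are ratios of reads scaled to library totals and whiskers their exact 95% counting intervals; Cd209a in KO tumours, at 5.75, lies farthest from 1, and Irf8 and Siglech lie near 1 in KO tumours.

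Of the 20 genes of the mature state, Fscn1 included, 14 were higher in both KO libraries, 2 were lower and 4 overlapped, beside 22.4% and 19.3% of all genes above 0. The median log2 fold change of the 18 tested was 0.52. With limma-voom at 10 reads it was 0.81. The unadjusted p was under 0.05 for 11, all higher, beside 8.36% of all tested genes in that direction. None was called, beside 0.114% of all tested genes in either direction. The log2 fold changes of Ccl17, Ccl22 and Cd83 were 2.86, 2.22 and 1.26 without KO 1, and 1.75, 1.52 and 0.88 without KO 2. With the replicate number as a block, limma called Ccl17 and Ccl22 (adjusted p = 0.0212 for each), among 69 of all 13147 genes. The numbers were not taken to pair samples. A crossed pairing, added after seeing the data, called 848 genes, among them Ccr7, Ccl17, Ccl22, Cd40, Cd83 and Birc3.
Ccr7, the receptor that guides mature cells to lymph nodes, had 2.67 and 3.68 FPKM in KO tumours and 1.12 and 1.43 FPKM in WT tumours (log2 fold change 0.87 ± 0.18, limma adjusted p = 0.155). Cd83, a surface marker of maturation, averaged 8.74 ± 1.78 FPKM in KO tumours and 3.602 ± 0.0556 FPKM in WT tumours (SD, n = 2 each; 1.07 ± 0.16, adjusted p = 0.102). For Ccl22 and Ccl17, whose products attract cells with the receptor CCR4, limma gave 1.87 ± 0.27 (adjusted p = 0.0921) and 2.31 ± 0.38 (adjusted p = 0.113), with 12.8 and 21.5 FPKM of Ccl22 in KO tumours against 4.71 and 3.09 FPKM in WT tumours. Il4i1, an amino acid oxidase, had 110 and 341 FPKM in KO 1 and KO 2 and 81.3 and 85.5 FPKM in WT tumours. Its log2 fold change of 1.20 ± 0.48 (limma adjusted p = 0.313) was 0.39 without KO 2 and 2.02 without KO 1.
The costimulatory ligands Cd86 (3.63 and 4.22 FPKM against 2.04 and 2.44 FPKM) and Cd80 (1.31 and 1.53 FPKM against 0.570 and 0.831 FPKM) and the receptor Cd40 (2.92 and 3.44 FPKM against 1.79 and 1.52 FPKM) were also higher in both KO libraries than in both WT libraries; these 3 were named after their values were seen. Il12b, a cytokine subunit of mature cells, had 0.702 and 0.747 FPKM in KO tumours and 0.194 and 0.322 FPKM in WT tumours, under the filter. Socs2, a feedback inhibitor of cytokine signals that many cells make, had 170 and 144 FPKM in KO tumours and 174 and 184 FPKM in WT tumours, and Marcksl1 had 34.4 and 35.4 FPKM against 38.1 and 35.7 FPKM. The ligand Cd274 overlapped, at 6.90 and 5.25 FPKM in KO tumours and 6.86 and 5.85 FPKM in WT tumours. Several genes of this list are made by B cells, macrophages and epithelium too. B cell markers summed to 49.0 and 47.1 FPKM in KO tumours and to 33.0 and 34.3 FPKM in WT tumours. Of the 8, 6 were higher in both KO libraries, beside 22.4% of all genes above 0. The part of B cells in these values was not tested.

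**Figure D3:**
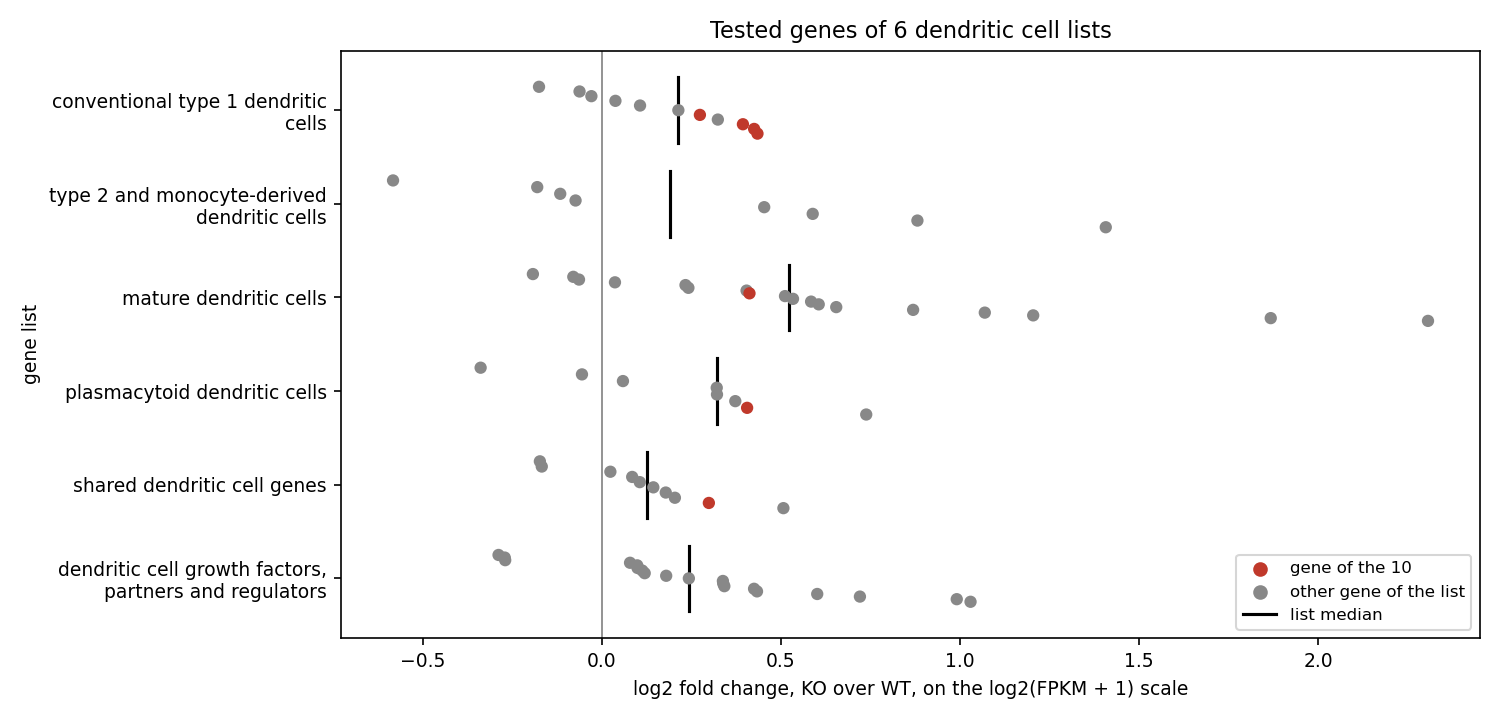
Log2 fold change of KO over WT tumours (x axis, log2(FPKM + 1) scale) for the tested genes of 6 dendritic cell lists (y axis). Red points are genes of the 10, grey points other genes of the list and black lines list medians; Ccl17 of the mature list lies farthest to the right, and Fscn1, at 0.41, lies left of that list's median of 0.52.

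Plasmacytoid cells were represented by Siglech, a lectin that restrains interferon release and is close to specific for these cells in mice outside the brain. Siglech (ENSMUSG00000051504, chromosome 7, 55768178 to 55778925) had 1.63 and 1.66 FPKM in KO 1 and KO 2, against 1.15 and 0.849 FPKM in WT 1 and WT 2. The KO libraries were nearly equal, from 47 and 45 reads, and lay above both WT libraries, with 40 and 29 reads, whose counting intervals reached up to 1.56 and 1.22 FPKM. Its log2 fold change was 0.41 ± 0.17 (SE; limma unadjusted p = 0.0509, adjusted p = 0.328), and it lay between 0.30 and 0.51 with each library left out in turn.

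The plasmacytoid list gave 9 of 12 genes, Siglech included, higher in both KO libraries, 0 lower and 3 overlapping, beside 22.4% and 19.3% of all genes above 0. None of the 8 tested was called, the unadjusted p was under 0.05 for 2 (Bst2 and Spib) against 8.36% of all tested genes, and the median log2 fold change was 0.32. That median was 0.06 with an FPKM of at least 5 and 0.09 with a pseudocount of 10. Spib, a transcription factor of plasmacytoid cells and of B cells, had 1.44 and 1.14 FPKM in KO tumours and 0.263 and 0.486 FPKM in WT tumours (0.74 ± 0.19, limma adjusted p = 0.189). Bst2, an interferon-induced surface protein, had 41.3 and 40.2 FPKM against 30.7 and 34.2 FPKM (0.32 ± 0.11, adjusted p = 0.261), and Irf7, the factor for interferon genes, had 11.5 and 9.95 FPKM against 9.11 and 7.09 FPKM. Runx2 had 3.69 and 3.45 FPKM in KO tumours and 2.65 and 2.66 FPKM in WT tumours.
Of the lowest genes, Ccr9, a homing receptor, had 0.327 and 0.367 FPKM in KO tumours and 0.150 and 0.108 FPKM in WT tumours, and Tlr9, the sensor of unmethylated DNA, had 0.800 and 0.800 FPKM against 0.465 and 0.528 FPKM. Tlr7, Cox6a2 and Ly6d overlapped. Ly6d, which epithelium and B cell precursors also make, had 14.66 and 5.09 FPKM in KO tumours and 10.98 and 11.72 FPKM in WT tumours. Its log2 fold change was -0.34 ± 0.41 (limma adjusted p = 0.733), -1.02 without KO 1 and 0.34 without KO 2, so that its direction rested on KO 2.

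Growth factors and regulators of dendritic cells were read from a list of 22 genes, of which 21 were in the table. Of these, 11 were higher in both KO libraries, 3 were lower and 7 overlapped, beside 22.4% and 19.3% of all genes above 0. Of the 19 tested, 0 were called, 5 were higher at an unadjusted p under 0.05 (8.36% of all tested genes), and the median log2 fold change was 0.24. Csf1, the macrophage growth factor, had 6.42 and 9.96 FPKM in KO tumours and 3.51 and 3.32 FPKM in WT tumours (1.03 ± 0.20, limma adjusted p = 0.14). Its log2 fold change was 1.31 without KO 1 and 0.75 without KO 2. Csf2, which drives dendritic cells from monocytes in culture, had 5.29 and 3.18 FPKM against 2.08 and 2.71 FPKM (0.60 ± 0.23, adjusted p = 0.298; 0.31 without KO 1). Ccl21a, a ligand of CCR7, had 10.7 and 14.1 FPKM against 9.34 and 5.31 FPKM (0.72 ± 0.25, adjusted p = 0.275; 0.36 without WT 2).
Nfil3, a factor upstream in the type 1 lineage, had 9.61 and 10.6 FPKM in KO tumours and 7.16 and 7.28 FPKM in WT tumours (log2 fold change 0.43 ± 0.12, limma adjusted p = 0.21). Id2, another such factor that epithelium makes at high level, had 330 and 321 FPKM against 387 and 408 FPKM (-0.29 ± 0.12, adjusted p = 0.334), and Stat3, which transmits the FLT3 signal among many others, had 139 and 149 FPKM against 191 and 159 FPKM. Ccl19, the other CCR7 ligand on the list, was listed at 0 in 3 of the 4 libraries.

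Across the 10 genes, KO 2 lay above KO 1 for 8 (all but Clec9a and Batf3) and WT 1 above WT 2 for 8 (all but Irf8 and Batf3). KO 2 was the highest of the 4 libraries for 8 and WT 2 the lowest for 8. The shares of all genes with these orders were not counted, so a trait of the 10 genes cannot be told from one of the libraries. Summed markers of endothelial cells, fibroblasts, macrophages, monocytes and T cells also had KO 2 highest and WT 2 lowest. Those of the other cell types did not. Summed over both libraries of a genotype and scaled to library totals, reads of each of the 10 were more frequent in KO tumours, with ratios whose 95% exact counting intervals lay above 1, for example 2.19 for Xcr1 (1.43 to 3.39), 1.69 for Clec9a (1.28 to 2.23), 1.64 for Siglech (1.19 to 2.27) and 1.22 for Irf8 (1.13 to 1.31). These intervals cover the counting of reads in these libraries and not the spread between mice, which the limma values include.

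Markers of other cells differed between the same libraries. Over all genes above 0, 22.4% were higher in both KO libraries and 19.3% lower, and 0.0761% of tested genes were called higher. Neutrophil markers summed to 101 and 116 FPKM in KO tumours and to 28.9 and 30.2 FPKM in WT tumours, with S100a8, S100a9 and Csf3r called (limma adjusted p = 0.0108, 0.0261 and 0.0255), and 6 of 8 genes higher in both KO libraries. Natural killer cell markers summed to 7.83 and 7.78 FPKM against 3.72 and 3.34 FPKM (6 of 8 higher), and red blood cell genes to 1194 and 1093 FPKM against 247 and 490 FPKM (5 of 5 higher). The sum of macrophage markers did not separate the genotypes in this way: it was 297 and 365 FPKM in KO tumours and 307 and 275 FPKM in WT tumours. Of the 12, 3 were higher in both KO libraries (C1qa, C1qb and Cd163), 2 were lower (Marco and Siglec1) and 7 overlapped, shares near those over all genes above 0. The sum hides single genes. Marco had 3.78 and 1.34 FPKM in KO tumours and 20.91 and 15.35 FPKM in WT tumours (log2 fold change -2.50 ± 0.34, limma adjusted p = 0.0852). Epithelial genes, nearly all of it Sftpc, summed to 92000 and 77600 FPKM against 76820 and 79430 FPKM (0 of 8 higher, 3 lower). No difference between the dendritic cell genes and any of these lists was tested, and how far the other cells enter the values of the 10 genes was not tested.

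**Figure D4:**
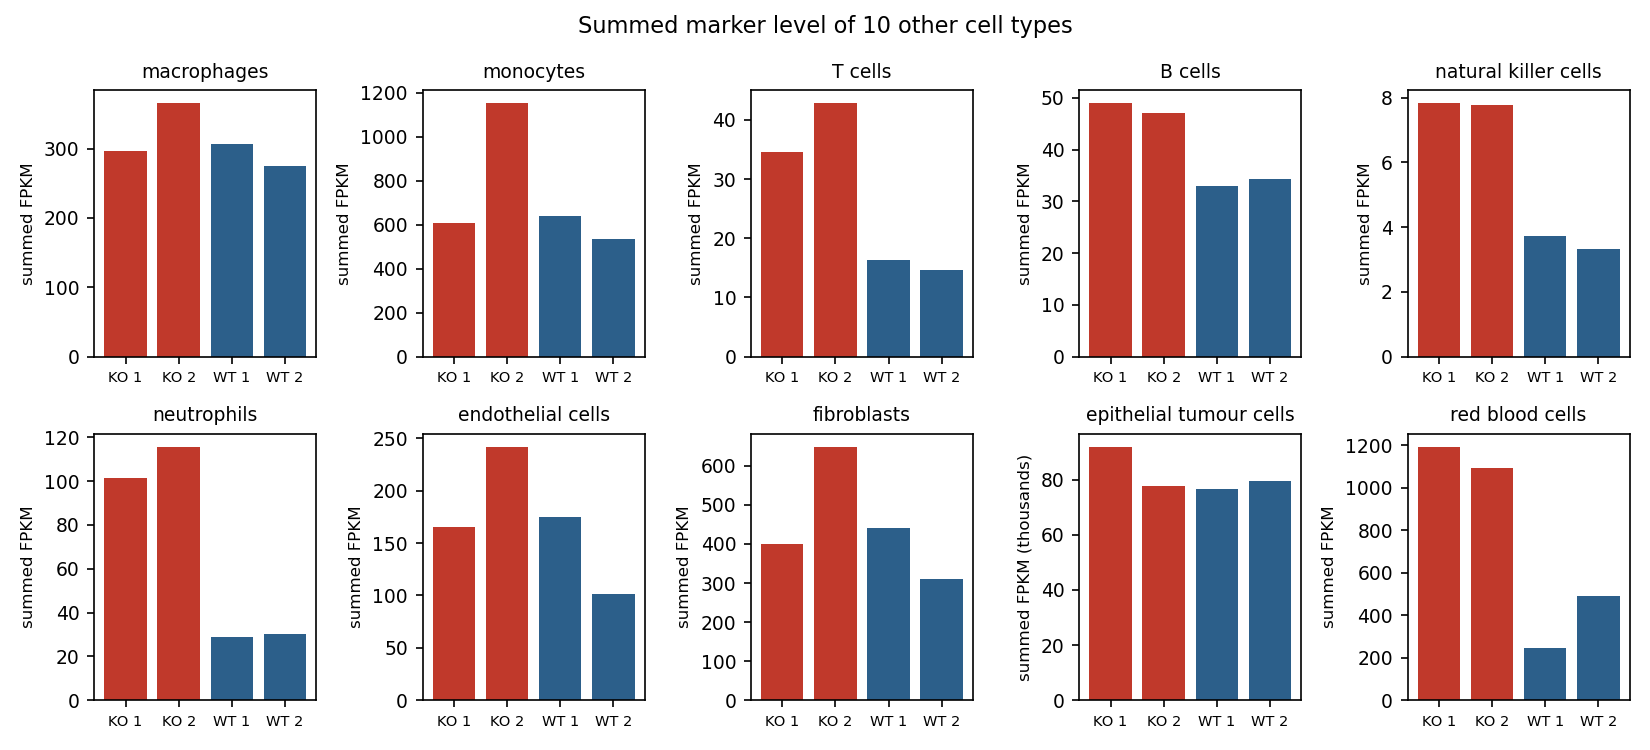
Summed FPKM of fixed marker lists for 10 other cell types (y axis, linear from 0, the epithelial panel in the larger unit its axis names) in KO 1, KO 2, WT 1 and WT 2 (x axis). Bars are single libraries; neutrophil and T cell bars are higher in both KO libraries, and endothelial, fibroblast and macrophage bars stand in the order KO 2, WT 1, KO 1, WT 2.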

How the data were processed

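The table deposited by the authors gives FPKM per gene for 4 libraries. Per the submitters' processing notes mm10, TopHat2 and DESeq2 were used, with no role or version stated. The sources used here do not name the counter, its strand setting, filters or gene lengths. Whole reads came out of the deposited FPKM values of 21600 of 21601 genes above 0 (tolerance 0.001 reads plus 2e-07 per read). For 12206 genes the length behind them was the rounded mean of annotated transcript lengths; for the rest it was another annotated length or the smallest giving whole reads. The median tested gene had 513 reads. Intervals from reads cover counting error only. GENCODE M21 (GRCm38, the assembly of mm10) gave symbols for 34490 of 35275 identifiers, and coordinates count from 1.

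The genotypes were compared in R 4.3.3 by limma 3.58.1 with a trended prior, on log2(FPKM + 1). Tested were 13147 genes reaching an FPKM of 1 in at least 2 libraries, with Benjamini-Hochberg adjustment and calls at an adjusted p under 0.05. Fold changes on this scale understate changes of low genes. The residual degrees of freedom were 2, to which the prior added 4.12, and the fit was tested on simulated data. "Higher in both KO libraries" means that both lay above both WT libraries. Alternatives changed the pseudocount, filter or scaling, added a replicate block, left out single libraries or used limma-voom on recovered reads. A fit without 1 library has 1 sample left in that group, so its calls include no spread within that group. Limma-voom with at least 10 reads in 2 or more libraries, and a crossed pairing, were added after seeing the data. The 10 genes and all lists were chosen with earlier results of these data known. Named by rule were the 10, Nfe2l2, called genes and, per dendritic cell list, up to 5 tested genes in each direction with the largest fold change among those whose groups did not overlap; other genes were named after their values were seen.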

Additional observations from a re-analysis of the deposited data

How the results depend on the processing

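Over 14 alternatives the 10 genes had 118 log2 fold changes, of which 117 were positive; the exception was Cd209a without KO 2 (-0.095). All come from the same 4 libraries. For the 8 genes whose groups do not overlap, no pseudocount, replicate block or left-out library could turn the sign. The count of positive values is therefore no measure of robustness. An adjusted p came with 100 of these, down to 0.0609 for Fscn1 with the crossed pairing, and none was a call. Xcr1, Flt3 and Cd209a had one only with no filter and with limma-voom at 10 reads, and with an FPKM of at least 5 only Batf3, Irf8 and Fscn1 were tested. With 1 library left out, log2 fold changes ranged from 0.157 to 0.341 for Xcr1, 0.054 to 0.400 for Flt3, -0.095 to 1.342 for Cd209a and 0.039 to 0.786 for Fscn1. For the low genes the pseudocount set the size: Xcr1 was at 0.817 with a pseudocount of 0.1, 0.032 with 10 and 1.087 with limma-voom at 10 reads in 2 or more libraries, and Flt3 at 0.548, 0.034 and 0.639. Quantile normalization gave 0.266 for Clec9a and for Siglech. The count of all called genes, 15, was 1 with no filter, 6 with limma-voom on recovered reads, 7 with its minimum of 10 reads, and 10 to 221 with 1 library left out. With the replicate block it was 69, and 848 with the crossed pairing. Same-numbered libraries deviated in opposite directions (correlation -0.306), so the numbers were not taken to pair samples. The causes of these shifts were not tested. Depth limits Xcr1, Flt3, Cd209a, Siglech, Clec9a and Batf3, with 15 to 83 reads per library.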

Other observations

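Ptprc, the gene of the leukocyte surface protein CD45 and named after its values were seen, had 19.7 and 19.3 FPKM in KO tumours and 21.0 and 16.3 FPKM in WT tumours, a log2 fold change of 0.07 ± 0.14 (SE; limma adjusted p = 0.86). Its mean in KO tumours was 1.04 times that in WT tumours, beside a median of 1.59 times for the 10 dendritic cell genes. Summed markers of T cells, B cells, natural killer cells and neutrophils, given above, were also higher in both KO libraries than in both WT libraries. The sums of monocyte and macrophage markers overlapped. Most of the monocyte sum came from Chil3. Of the 8 monocyte markers, Ly6c2, Ccr2 and Plac8 were higher in both KO libraries, 0 were lower and 5 overlapped, beside 22.4% and 19.3% of all genes above 0. Whether the change of Ptprc differs from that of the 10 genes was not tested, nor was the total number of leukocytes.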
